A study of Homo sapiens with 2 samples.

Results

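H1299 is an established line from a human lung carcinoma of the non-small cell kind, and its cells make no p53, a transcription factor called up by DNA damage. The thrombin receptor and plasminogen activator genes F2R, F2RL1, F2RL2, F2RL3, F3, THBD, PLAU, PLAUR and PLAT were followed in H1299 cells with p53 and in H1299 cells of a negative control, with 1 array per group. The means by which p53 was supplied, its duration and the nature of the negative control are not given here, and both groups come from 1 cell line. The genes were gathered by name around F2RL2, which was chosen by its large difference in log2 intensity between these same arrays. All values come from the comparison used for that choice, so they are descriptions, and with 1 array per group no p-value or replicate error can be given. Of the 9 genes listed, 8 had a probe set under their own symbol, each of them 1 probe set, among 18417 genes measured. F2RL1 was not analysed here.

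Thrombin, the last protease of the clotting cascade, signals to cells through some of the protease-activated receptors. Cutting gives the receptor a new amino end, which can act as its own ligand. Tissue factor starts that cascade on the cell surface, and thrombomodulin turns thrombin towards the activation of protein C, an anticoagulant. The urokinase and tissue-type activators turn plasminogen into plasmin, which dissolves fibrin and degrades matrix, and the urokinase receptor holds urokinase on the membrane, where tumour cells use it in invasion.

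The promoters of the 2 members with the widest differences are shown because F2RL2 was higher and PLAUR lower with p53. RefSeq promoter windows on GRCh38.p14, which run from 250 bases before to 50 bases after the start of a gene, were held for 6 of the 9 genes. F2R, THBD and PLAT had none in the table used. Each is written 5′ to 3′ on the strand of its gene. In F2RL2 (chr5:76623354-76623653, minus strand) capitals mark the 1 exact match to the p53 decamer, the 10-base unit whose repeat p53 binds, and the best pair of inexact ones, each with 1 mismatch. A further single decamer with 1 mismatch is left in lower case. Of all promoters, 63.7% held a decamer with at most 1 mismatch. In PLAUR (chr19:43670120-43670419, minus strand) capitals mark TGAGTCA, the site of the AP-1 factors.
F2RL2: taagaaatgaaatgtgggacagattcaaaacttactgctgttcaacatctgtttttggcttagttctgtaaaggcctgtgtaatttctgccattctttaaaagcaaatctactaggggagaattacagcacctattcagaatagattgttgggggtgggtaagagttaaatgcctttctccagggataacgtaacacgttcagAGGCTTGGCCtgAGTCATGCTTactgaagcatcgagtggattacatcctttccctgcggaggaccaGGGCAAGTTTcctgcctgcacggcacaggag
PLAUR: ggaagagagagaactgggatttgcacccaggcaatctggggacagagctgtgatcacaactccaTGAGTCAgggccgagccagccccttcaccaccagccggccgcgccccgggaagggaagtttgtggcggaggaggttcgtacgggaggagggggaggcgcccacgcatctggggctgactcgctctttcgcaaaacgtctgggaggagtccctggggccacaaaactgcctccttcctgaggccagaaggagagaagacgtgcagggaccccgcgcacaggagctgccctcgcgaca
The F2RL2 window held 1 exact p53 decamer, which began 19 bases past the start, and 6.63% of the 35116 promoters in the table held at least 1. It also held a pair of decamers 2 bases apart, beginning 47 and 35 bases before the start, with 2 mismatches in all. A pair with at most 2 mismatches and at most 13 bases between its units occurred in 7.82% of promoters. The pattern reads the same on both strands, so 1 search covers both. PLAUR held no exact decamer, and its best pair had 3 mismatches. It did hold 2 decamers with 1 mismatch each, which are left in lower case above. TGAGTCA, searched on both strands, began 186 bases before the start of PLAUR. It was also found in F2RL2, 37 bases before the start, where it overlaps the second unit of the pair, and in F3, and 4.95% of all promoters held it. The F2RL2 window had 5 CpG dinucleotides and a GC content of 44.7%, the PLAUR window 18 and 64.0%, and the medians over all promoters were 14 and 58.7%. These searches were chosen after the sequences were seen. A match is a run of letters and not evidence of binding.

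Intensities were deposited as log2 values after robust multi-array averaging (RMA), and every difference below is the log2 intensity with p53 minus that in the negative control. A gene was kept where the higher of its 2 values reached the median of all probe sets, 7.38, which left 11436 genes and 7 of the 8 measured members. A difference was called at a size of 2-fold, which 8.21% of the kept genes reached upwards with p53 and 5.79% downwards. Among the members 1 was called higher, F2RL2, and 1 lower, PLAUR. Since F2RL2 was chosen for its difference, nothing is read from the first count. The median difference was 0.00 over the 8 measured members and 0.00 over all measured genes. CDKN1A, a classical p53 target that encodes the cell cycle inhibitor p21, was at 12.66 with p53 and 9.18 in the control, and MDM2, the p53 ubiquitin ligase gene, was at 13.59 and 10.87.

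**Figure D1:**
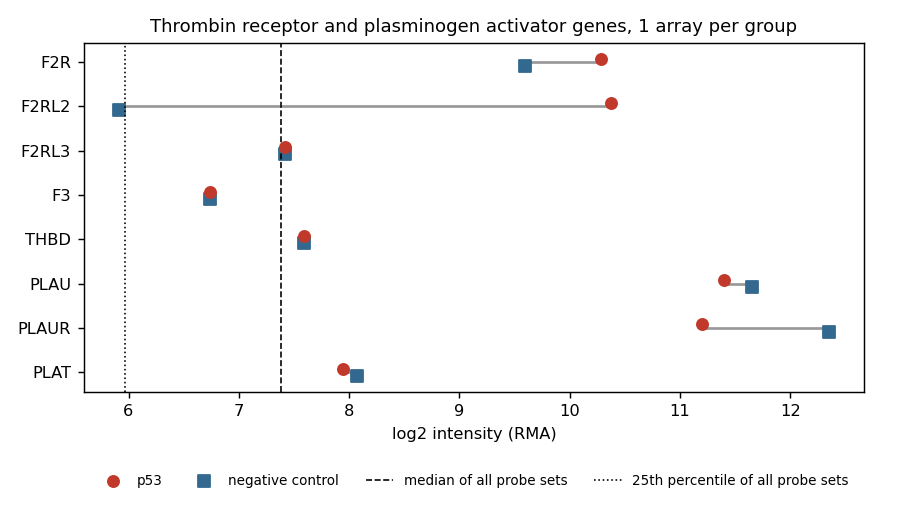
The log2 intensity of each of the 8 measured genes with p53 (red circles) and in the negative control (blue squares), 1 array each, drawn slightly apart in height so that equal values stay visible. The lines join the 2 values, and F2RL2 has 10.38 with p53 and 5.91 in the control, whereas F2RL3, F3 and THBD have the same value in both.

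The receptors differed from each other in how they stood between the arrays. F2RL2 encodes PAR3, which thrombin cuts and which in mouse platelets serves as a cofactor for the cutting of PAR4. Its log2 intensity was 10.38 with p53 and 5.91 in the negative control, a difference of 4.46 or 22.0-fold. The control value lay just under the 25th percentile over all probe sets, 5.97, and the p53 value lay well above the filter level of 7.38. F2RL2 thus passed the filter through the p53 array alone. In RNA from whole cultures, more cells with the transcript and more of it per cell cannot be told apart. Taken from the 25th percentile in place of the dim control value, the difference was 4.40, or 21.2-fold. Among the 11436 kept genes F2RL2 had the 9th highest difference. It was chosen for that difference, so nothing is read from the rank.

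F2R encodes PAR1, the main thrombin receptor of human platelets and of many tumour cells. Its log2 intensity was 10.28 with p53 against 9.59 in control cells, a difference of 0.69 or 1.61-fold. Both values lay above the filter, and the difference was below the 2-fold size. An absolute difference larger than that of F2R was found in 24.3% of the kept genes. F2RL3, which encodes PAR4, the low-affinity thrombin receptor of platelets, was at 7.42 with p53 and 7.42 in the control, just above the filter level. Of the 3 receptor genes measured, F2RL2, chosen for its difference, was past 2-fold. F2R was higher by less than 2-fold, and F2RL3 had identical values.

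The genes that start and redirect thrombin formation had the same value in both arrays. F3, which encodes tissue factor, was at 6.74 with p53 and 6.74 in the control, below the filter in both. THBD, which encodes thrombomodulin, was at 7.59 with p53 and 7.59 in the control, just above it. Values identical to the last deposited digit were found in 14.6% of the kept genes, in 31.0% of the kept genes whose mean was below 8, in 69.2% of the genes below the filter, and in 4.81% of those that reached 9.01, the 75th percentile. The exact zeros of F3, F2RL3 and THBD therefore lie in the dim range, where such zeros are more frequent, and how they arose was not tested. They are bare equalities of dim values and do not measure how close the transcripts were in the cells.

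The plasminogen activator genes and the gene of the urokinase receptor all had differences below 0, of unequal size. Of all kept genes 50.6% had a difference below 0, so nothing is read from the shared sign. PLAUR, which encodes the urokinase receptor, had a log2 intensity of 11.20 with p53 against 12.35 in control cells, a difference of -1.15 or 2.22-fold lower. Both values lay far above the filter and above the 75th percentile, so no dim value enters this fold. Of the kept genes, 4.005% had a difference below that of PLAUR. PLAU, which encodes urokinase, the ligand of that receptor, stood at 11.40 with p53 against 11.65 in control cells, a difference of -0.25. A larger absolute difference was found in 53.9% of the kept genes. PLAT, which encodes the tissue-type activator that works on fibrin, stood at 7.95 with p53 against 8.07 in control cells, a difference of -0.13, and 67.6% of the kept genes differed by more. The receptor gene was thus past 2-fold, while the genes of both proteases were not.

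The only scale for these differences lies within the 2 arrays. The spread of the differences over the kept genes, estimated from the median absolute deviation, was 0.43 on the log2 scale and includes whatever p53 changed. Pairs of probe sets of 1 gene, compared in 309 genes, differed from each other with a spread of 0.13, estimated the same way, which holds no variation between cultures. PLAU lay within the first spread, and F2R and PLAUR beyond both. PLAT (-0.13) lay within the first and close to the second. The second is the spread of a gap between 2 differences and not of 1, so the place of PLAT beside it is not read. F2RL2 was chosen for its difference, so its place is not read. Neither spread is an error between replicate cultures, so lying beyond them is a description only. At a size of 1.5-fold F2R joined F2RL2, so that 2 members were higher, against 14.4% of the kept genes. PLAUR was the 1 member lower at that size, against 15.5% of the kept genes. As F2RL2 is the chosen gene, nothing is read from the count of higher members. At 3-fold F2RL2 remained as the 1 member called and PLAUR was no longer called, with 3.93% of the kept genes higher and 1.53% lower.

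**Figure D2:**
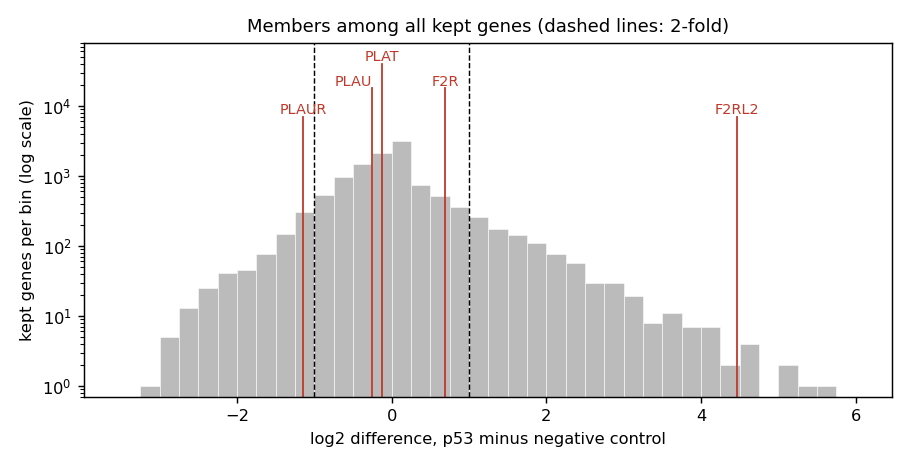
The number of kept genes (log scale) in bins of the log2 difference, p53 minus negative control, with red lines at the 5 kept members whose values differed between the arrays. F2RL2 at 4.46 stands in the sparse right tail, PLAUR at -1.15 just past the dashed line of 2-fold, and PLAU, PLAT and F2R lie between the dashed lines.

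F2R, F2RL1 and F2RL2 lie close together on chromosome 5, and in the GRCh38.p14 gene table F2RL2 lies inside the span of IQGAP2, a scaffold protein gene of the cytoskeleton. Of the 15 genes from 5 before F2RL2 to 5 after F2RL1 in that table, 6 were measured. IQGAP2, the host of F2RL2, was at 5.57 with p53 and 6.16 in the control, below the filter in both, with a difference of -0.58. On the far side of the receptors S100Z, an S100 calcium-binding protein gene, was at 5.39 with p53 and 5.39 in the control, and CRHBP, which encodes a binding protein of corticotropin-releasing hormone, was at 6.39 and 6.39. AGGF1, an angiogenic factor gene, was at 8.57 with p53 and 8.80 in the control. IQGAP2, S100Z and CRHBP were below the filter, so AGGF1 was the 1 neighbour that could have been called, and nothing is read from a count of neighbours.

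**Figure D3:**
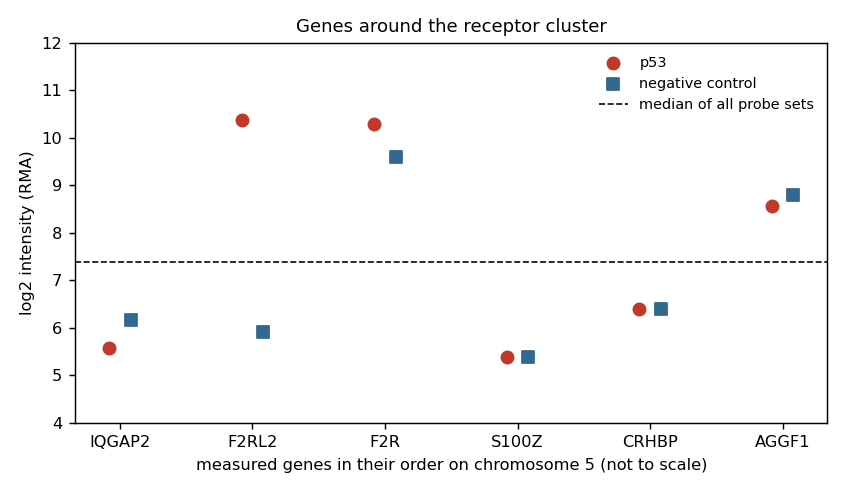
The log2 intensity with p53 (red circles) and in the negative control (blue squares) of the 6 measured genes around the receptor cluster, in their order on chromosome 5. F2RL2 was chosen for its difference, and IQGAP2, within whose span it lies, has 5.57 with p53 and 6.16 in the control.

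The 5 kept genes whose difference was nearest to that of F2RL2, over 2 arrays, were LAMP3 (4.56), GDF9 (4.57), VCAN (4.34), SELENOP (4.62) and PDE3A (4.21). The likeness is the gap between the differences, 0.10 for LAMP3 and 0.25 for PDE3A. SELENOP at 5.00 and PDE3A at 5.91 had control values under that 25th percentile, as F2RL2 did. GDF9 at 6.22 had a control value above the 25th percentile but below the filter. SELENOP, PDE3A and GDF9 thus passed the filter through the p53 array alone, as F2RL2 did. LAMP3 at 7.64 and VCAN at 7.95 had control values above the filter.

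Other genes of the clotting and plasminogen pathways were taken from 9 lists, which hold 151 genes, 145 of them measured and 86 kept. Of these 86, 11 passed 2-fold upwards with p53 (12.8%, beside 8.21% of all kept genes), 1 downwards (1.16%, beside 5.79%) and 74 neither way. The median difference was 0.00 over the 145 measured genes.

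Among the proteins that restrain clotting, PROCR stood apart from the rest. It encodes the endothelial protein C receptor, which presents protein C to the complex of thrombin and thrombomodulin, and it was at 11.29 with p53 and 9.13 in the control, 4.47-fold higher. PROCR was the 1 gene called among the 5 kept of 12 anticoagulant genes. Of all kept genes 8.21% were higher and 5.79% lower, so nothing is read from the counts of lists as short as those in this paragraph. TFPI, the inhibitor of tissue factor, stood at 6.03 with p53 against 7.14 in control cells, a difference of -1.11 between values that both lie below the filter. SERPINE2, whose product inhibits thrombin and urokinase, was at 9.85 with p53 and 9.04 in the control, less than 2-fold apart, and was the 1 kept gene among 9 measured genes of plasminogen and the fibrinolysis inhibitors. Of 20 genes listed with the coagulation factors 6 were kept and none was called. Only F7 and F10 of these 6 encode factors. F7 (7.45 with p53, 7.33 in the control) and F10 (7.43 and 7.35) passed the filter narrowly, through the p53 array alone. The other kept genes were LMAN1, MCFD2, GGCX and VKORC1. F2, the gene of thrombin itself, was at 6.53 with p53 and 6.53 in the control. LMAN1 (-0.68) and MCFD2 (-0.62), which together form the cargo receptor that exports factors V and VIII from the endoplasmic reticulum, had the widest differences of that list. None of the 7 kept genes of the 20 measured proteases that cut the receptors was called, and their differences ran from -0.01 to 0.14.

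Of 30 kept genes that carry or end the signals of the protease-activated receptors, 6 were higher, 1 was lower and 23 lay within 2-fold. The shares were 20% higher, beside 8.21% of all kept genes, and 3.33% lower, beside 5.79%. The median was -0.11. With an offset of 32 added before log2, 3 genes of this list were called higher. ARRB1, which encodes an arrestin that uncouples activated receptors from their G proteins, stood at 11.56 with p53 against 8.35 in control cells, a difference of 3.21. GNA11 (1.75) encodes a G protein subunit of the Gq class, and PLCB1 (1.44) the phospholipase that this class activates. GNAQ (1.01), the other such subunit, GRK5 (1.02), a receptor kinase, and GNAI1 (1.001), a Gi subunit, all named after their values were seen, lay at the edge of 2-fold. GNAQ has a pseudogene copy that its probes may also read. The second probe set of GRK5 was dim and equal in both arrays. BICD1, a dynein adaptor gene, was the lower one (-1.11). Among 10 kept genes known to be induced through thrombin receptors 3 were higher, EGR1 (2.65), PTGS2 (2.08) and FOS (1.31), none was lower, and CCL2, a chemokine gene, had a difference of -0.82. Over all kept genes 8.21% were higher. PTGS2, at 8.39 with p53 and 6.31 in the control, passed the filter through the p53 array alone. When genes had to reach the 75th percentile, 1 gene of this list was called higher. These 3 genes answer many other stimuli too, and receptor signalling was not measured.

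Of 10 genes of receptors for plasminogen or its activators, all kept, 1 was higher and none was lower. That is 10% higher, near the 8.21% of all kept genes, of which 5.79% were lower, so nothing is read from the count. LRP1, the endocytic receptor that clears urokinase bound to its inhibitors, stood at 8.68 with p53 against 7.63 in control cells, a difference of 1.06. IGF2R, which binds the urokinase receptor, followed at 0.91. With an offset of 32 before log2 the difference of LRP1 was 0.95, below 2-fold, and no gene of this list was called with that offset, nor when genes had to reach the 75th percentile.

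**Figure D4:**
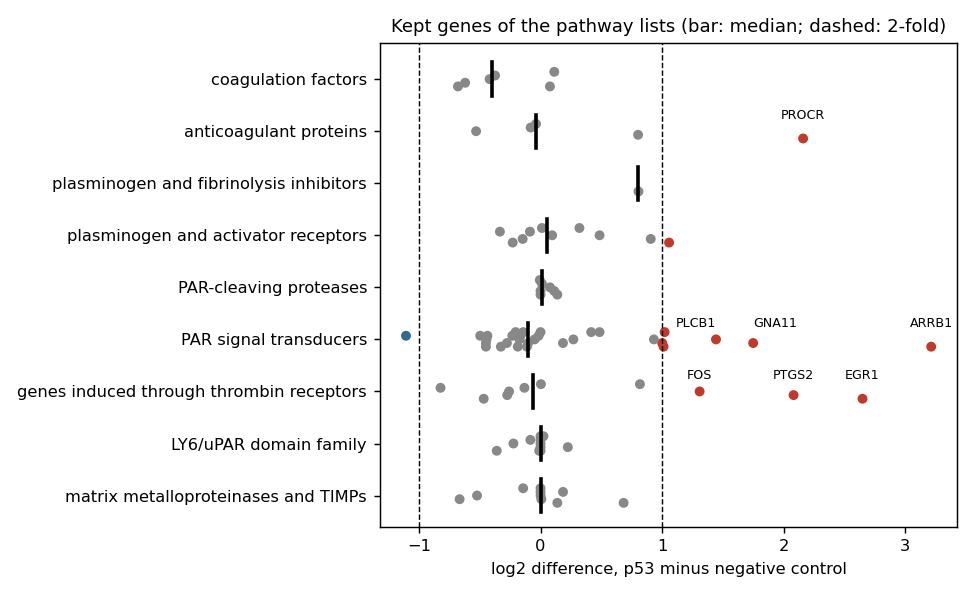
The log2 difference, p53 minus negative control, of each kept gene in the 9 pathway lists, with black bars at the median of each list, red points at least 2-fold higher and blue points at least 2-fold lower. Most points lie between the dashed lines of 2-fold, with PROCR (2.16), ARRB1 (3.21) and EGR1 (2.65) farthest to the right in their lists.

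Several members are known best from platelets and endothelium, so markers of those cells were read beside them. Of 7 endothelial markers 6 were equal in both arrays and 1 was above the filter, and their summed level was 9.45 with p53 and 9.46 in the control on the log2 scale. Of 6 measured platelet and megakaryocyte markers 5 were equal and 1 was above the filter, with summed levels of 9.28 and 9.27. Of 6 monocyte and macrophage markers 2 were above the filter. CD68 was at 11.01 with p53 and 11.40 in the control, and ITGAM was at 8.46 and 7.68. The summed level of that list was 11.39 with p53 and 11.63 in the control, and its part in the results was not tested. Of 6 epithelial markers the keratin genes KRT8, KRT18 and KRT7 were above the filter, whereas EPCAM, CDH1 and KRT19 were below it in both arrays.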

How the data were processed

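Per the labels' protocols, total RNA (Trizol) was labelled with biotin for Affymetrix arrays, 1 per group. The authors deposited 1 log2 intensity per probe set and array, summarised with RMA per the submitters' processing notes. No genome build, software or version is given in the sources used here. The values (1.41 to 14.68) show a log2 scale. Once sorted, the 2 columns lay at most 0.192 apart, so a shift in total RNA per cell could not be seen.

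Of 33297 probe sets, 19460 had 1 symbol in GEO's platform annotation, 1754 several and 12083 none in this table, and 19429 of the 19460 were matched to a RefSeq gene table by gene identifier. A gene with several probe sets was given by the one with the highest mean. Genes of each list were to be named if among its 4 widest differences, but not all of these are named. All members, their measured neighbours, the 5 genes nearest to F2RL2, CDKN1A and MDM2 were named besides. Some genes, such as F2, F10, GNAQ and CD177, were named outside this rule. The members and lists were chosen with earlier results of these data known, and a few genes of the lists are not reported here. The code for the 2-fold rule was tested on simulated data without noise, which checks the arithmetic and not the choice of threshold. The alternatives were no filter or one at the 75th percentile, 1.5-fold and 3-fold sizes, centring, removal of a lowess trend (span 0.3), the mean over probe sets, quantile normalization, an offset of 32 and a floor at the 25th percentile. The number of arrays limits the precision. Python 3.11.15, numpy 2.4.6, pandas 2.3.3, statsmodels 0.14.6 and matplotlib 3.10.9 were used.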

Additional observations from a re-analysis of the deposited data

Results flagged for a closer look

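Probe sets left out of the gene results, because a brighter one of the same gene was used, were read as well. For GNA11 the second probe set gave a difference of 1.71, beside 1.75 for the one used. For GNAQ it gave 1.14, beside 1.01. For CD177, a gene of the same domain family as PLAUR, the dimmer probe set gave 1.05, at 6.19 with p53 and 5.14 in the control, below the filter in both, beside 0.02 for the one used. These 3 were the unused probe sets of list genes that were at least 2-fold higher with p53.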

How the results depend on the processing

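The F2RL2 difference ran from 3.88 to 4.499 over 6 alternatives. The lowest, 3.88, came with the offset of 32, which by its construction shrinks differences of dim values. PLAUR ran from -1.15 to -1.08 and F2R from 0.67 to 0.79, so neither changed its side of 2-fold. The members called higher numbered 2 at 1.5-fold, and those called lower numbered 0 at 3-fold. The 11 pathway genes called higher became 7 with the offset, 7 with the filter at the 75th percentile and 5 at 3-fold, and the 1 called lower became 2 with no filter, 5 at 1.5-fold and 0 at 3-fold. The gene added with no filter was TFPI. With the offset LRP1 (0.95), GNAQ (0.998), GNAI1 (0.93) and GRK5 (0.92) fell short of 2-fold. So did TFPI (-0.83), which is below the filter. PTGS2 stood at 1.72 with the offset, still past 2-fold. GRK5 stood at 0.51 as the mean of its probe sets. IGF2R reached 1.003 with the lowess trend removed. The other 43 values of these main results moved by less than 0.13, the spread between probe sets, or, for counts, by no more than 1.5 times, and no called difference turned its sign. No paired analysis was possible because each group has 1 array. The dim control value of F2RL2 and the single array per group limit how exactly its fold is known.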

Other observations

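Among all kept genes 8.21% were at least 2-fold higher and 5.79% lower, so lists as short as those below would hold few such genes, and nothing is read from their counts. In the LY6/uPAR domain family, whose fold PLAUR carries, 11 of 18 measured genes were kept and none was called. LY6E had a difference of -0.36, LYNX1 0.22 and CD59, an inhibitor of complement, -0.22, beside -1.15 for PLAUR. Of 19 matrix metalloproteinase and TIMP genes, whose enzymes act on matrix beside plasmin, 10 were kept and none was called. MMP11 stood at 8.53 with p53 against 7.84 in control cells, a difference of 0.68. MMP16 stood at 7.82 with p53 against 8.49 in control cells, a difference of -0.67, and its second, dimmer probe set gave -1.05. MMP1, which can also cut PAR1, was at 9.61 with p53 and 9.47 in the control.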
